A study of Mus musculus with 6 samples.

Results

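The genes described here encode the enzymes and regulators of cholesterol and fatty acid synthesis. They are a list of 31 genes chosen by function, from the mevalonate pathway and the sterol steps to the sterol sensors and the desaturases. Each was read from the row of the expression table that names it, or from the row of highest mean where 2 rows do, and 30 of the 31 were found among 44519 rows. Mvd was not analysed here.

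Bulk mRNA sequencing measured their expression in cells of the mouse olfactory neuroepithelium that had been sorted for the Krt17-EGFP reporter. The sort targets horizontal basal cells (HBCs), the reserve stem cells that lie on the basement membrane of the olfactory epithelium. The control group (3 libraries, replicates 1, 2 and 4) came from mice with genotype Krt17-EGFP, described as NoDox. The TNF group (3 libraries, replicates 1, 3 and 4) came from mice that carry Cyp2g1-rtTA and TRE-TNF besides Krt17-EGFP and had 6 weeks of doxycycline. In these the Cyp2g1 promoter, active in sustentacular support cells, drives rtTA, which with doxycycline switches on tumor necrosis factor (TNF). All 6 libraries share the reporter. The 2 added transgenes and the doxycycline differ together between the groups and cannot be told apart. The labels state neither ages nor whether a library is 1 animal, so each p-value covers only the spread among these libraries, which may be technical.

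Cells make cholesterol from acetyl-CoA through mevalonate, isoprenoid diphosphates and squalene, and the isoprenoids also feed protein prenylation, dolichol and ubiquinone. The pathway is controlled by SREBP transcription factors, which Scap carries out of the endoplasmic reticulum when sterols are low and which Insig proteins hold back when sterols are high. SREBP-2, the product of Srebf2, acts mainly on the sterol genes, and SREBP-1, the product of Srebf1, mainly on the fatty acid genes. Cells use both products to build membranes.

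Expression is given as FPKM, a fragment count scaled by transcript length and by the mapped fragments of the library, and the read depth is unknown. FPKM summed to between 688190 and 838417 per library. Control replicate 4 and TNF replicate 1 stood apart, with Pearson correlations across genes of 0.922 to 0.931 and 0.909 to 0.912 with the other libraries of their groups, where the remaining pairs were at 0.972 and 0.983. The defining HBC marker Trp63 had a mean of 75.3 ± 9.43 FPKM in the controls and of 97.2 ± 18.8 FPKM in the TNF group (SD, n = 3 libraries each). Of 12 HBC markers, read from 11 rows because Krt14 and Krt17 share 1, 5 were higher in TNF libraries. Sums of the 11 rows ran from 878 to 3690 FPKM in control and from 5520 to 8340 FPKM in TNF libraries. The shared row, with means of 1480 and 4360 FPKM, was not among the 5. Sums of 12 mature olfactory neuron markers were 3570 to 6950 in control libraries. They were 1170 in TNF replicate 1 and 47.2 and 38 in TNF replicates 3 and 4, so the sorted control cells held neuronal transcripts as well. In such bulk values fewer cells of a type and less RNA per cell cannot be told apart.

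Of the 30 genes, 6 were lower in TNF libraries and 0 were higher (limma, adjusted p below 0.05, n = 3 per group). The lower genes encode 4 enzymes between acetyl-CoA and squalene (Mvk, Pmvk, Fdps and Fdft1) and 2 of the later sterol steps (Nsdhl and Hsd17b7). None of the 5 regulators and none of the 8 fatty acid genes passed the test. At an unadjusted p below 0.05, 9 genes differed, of which Insig1 was the 1 higher gene. The lower genes were 20.0% of the list, against 27.2% of the 15037 rows tested that were lower, while 10.9% of all rows were higher and 38.0% changed in either direction. The libraries of the groups did not overlap with TNF below in 36.7% of the list, against 36.2% of all tested rows, and with TNF above in 6.67%, against 16.8% (53.0% of all rows in either direction). Its median log2 change was −0.30, beside −0.22 for all tested rows, where a change is a difference of log2(FPKM + 1) that understates the change of low genes. Without control replicate 4 and TNF replicate 1, the 2 libraries that stood apart, 14 genes (46.7%) were lower and 1 (Scap) was higher, against 32.7% and 19.8% of all rows. Without control replicate 4 alone, 7 (23.3%) were lower and 0 higher, against 16.1% and 9.14%. Without TNF replicate 4, 3 were lower and 0 higher, against 19.7% and 6.01%. Under median-of-ratios scaling 4 were lower (Mvk, Pmvk, Fdps and Nsdhl) and 2 (Insig1 and Srebf1) higher, against 20.8% and 15.7%. When libraries were scaled to the HBC markers 21 (70.0%) were lower and 0 higher, against 61.6% and 1.47%. The share of lower genes in the list was thus below that of all rows as deposited and above it in some of these settings, the omission of control replicate 4 among them.

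**Figure D1:**
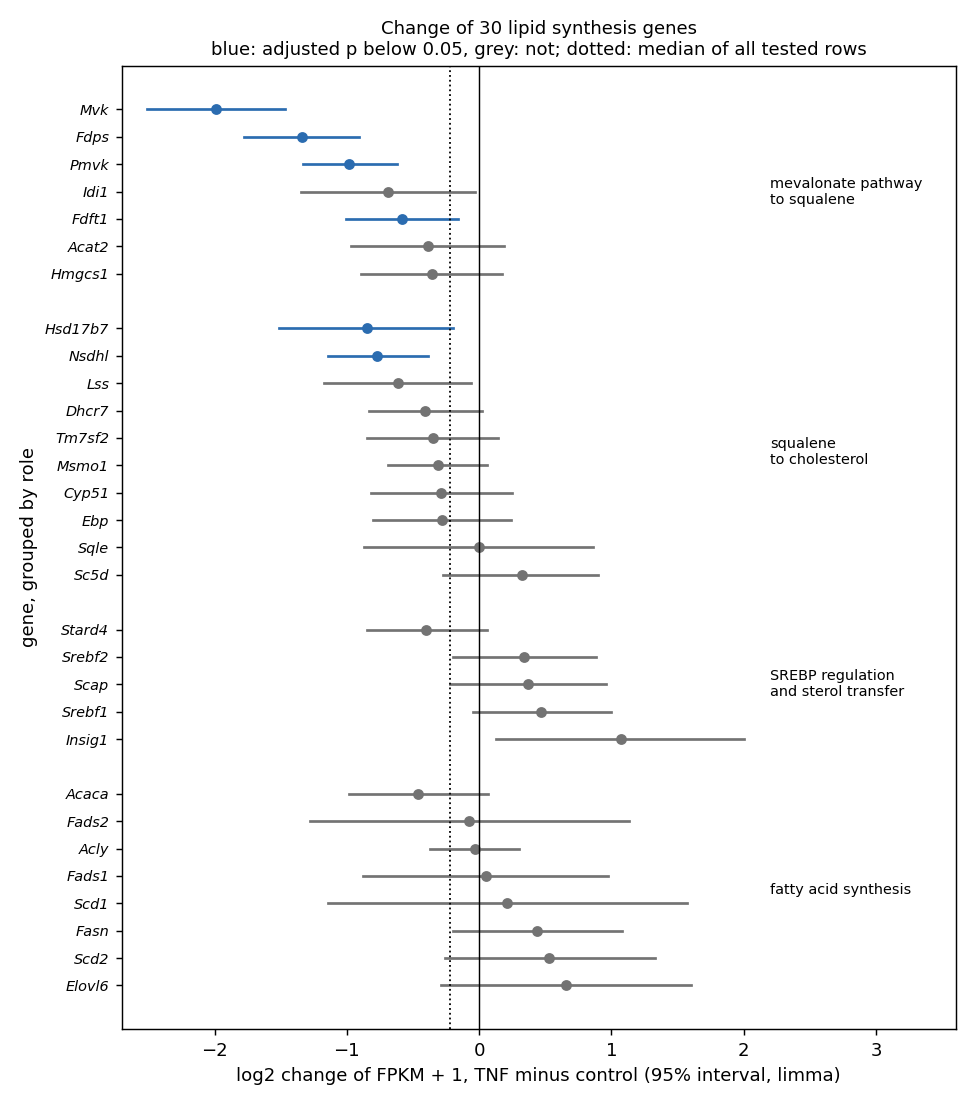
Log2 change of FPKM + 1 (TNF minus control) for 30 genes of cholesterol and fatty acid synthesis, grouped by role, with 95% intervals from limma (n = 3 per group). The 6 genes in blue passed an adjusted p below 0.05 and all lie left of zero, from Mvk at −1.99 to Fdft1 at −0.58, and the dotted line marks the median of all tested rows, −0.22.

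Promoters are shown for 3 of the lower genes (Mvk, Pmvk and Nsdhl) and for 2 genes of the same pathway that did not pass the test and lie at its feedback points (Insig1 and Hmgcs1). Each is the RefSeq window (GRCm38.p6, which is mm10) from 250 bases before to 50 after the transcript start, 5′ to 3′. Capitals mark 3 motifs searched on both strands, the sterol regulatory element TCACNCCAC, the CCAAT box and the GC box GGGCGG, of which the last 2 are bound by NF-Y and Sp1, known partners of SREBP. Each motif was counted on its own, also where its letters overlap those of another.
Mvk promoter, chr5:114444019-114444318, plus strand: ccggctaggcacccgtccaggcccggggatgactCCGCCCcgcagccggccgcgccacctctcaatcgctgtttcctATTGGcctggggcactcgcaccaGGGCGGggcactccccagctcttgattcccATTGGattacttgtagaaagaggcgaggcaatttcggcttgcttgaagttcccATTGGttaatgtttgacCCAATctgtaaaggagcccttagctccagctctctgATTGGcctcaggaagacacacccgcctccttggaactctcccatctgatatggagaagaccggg
Pmvk promoter, chr3:89454291-89454590, plus strand: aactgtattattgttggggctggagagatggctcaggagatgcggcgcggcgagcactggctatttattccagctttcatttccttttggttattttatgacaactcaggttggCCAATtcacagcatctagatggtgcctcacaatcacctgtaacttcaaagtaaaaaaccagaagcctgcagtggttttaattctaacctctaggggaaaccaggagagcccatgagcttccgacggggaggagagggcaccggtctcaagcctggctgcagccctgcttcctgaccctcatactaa
Nsdhl promoter, chrX:72918271-72918570, plus strand: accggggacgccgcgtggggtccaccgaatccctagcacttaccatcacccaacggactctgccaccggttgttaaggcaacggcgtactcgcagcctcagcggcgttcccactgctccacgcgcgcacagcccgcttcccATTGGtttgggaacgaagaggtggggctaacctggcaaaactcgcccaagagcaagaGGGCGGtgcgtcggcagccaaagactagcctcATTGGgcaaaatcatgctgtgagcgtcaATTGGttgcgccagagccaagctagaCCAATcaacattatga
Insig1 promoter, chr5:28071162-28071461, plus strand: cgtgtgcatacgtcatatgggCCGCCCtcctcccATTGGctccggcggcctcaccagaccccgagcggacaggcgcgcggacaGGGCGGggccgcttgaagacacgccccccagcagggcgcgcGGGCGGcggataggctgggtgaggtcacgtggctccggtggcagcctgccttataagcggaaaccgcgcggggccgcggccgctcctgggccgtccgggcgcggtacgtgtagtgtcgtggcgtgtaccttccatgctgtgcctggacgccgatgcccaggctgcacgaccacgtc
Hmgcs1 promoter, chr13:119690101-119690400, plus strand: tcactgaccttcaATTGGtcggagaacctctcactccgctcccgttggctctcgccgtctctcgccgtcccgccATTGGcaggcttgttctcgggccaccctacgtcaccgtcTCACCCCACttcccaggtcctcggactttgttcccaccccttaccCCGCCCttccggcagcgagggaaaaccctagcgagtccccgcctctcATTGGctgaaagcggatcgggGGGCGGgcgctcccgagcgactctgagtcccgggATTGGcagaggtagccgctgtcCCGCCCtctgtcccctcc
The window of Mvk held 5 CCAAT boxes and 2 GC boxes, that of Nsdhl 4 and 1, and that of Pmvk, the first listed of 2 windows of this gene, 1 and 0. Insig1 held 1 CCAAT box and 3 GC boxes. Hmgcs1 held 4 and 3 and also the 1 exact sterol regulatory element found among the synthesis genes with a window. Windows were available for 23 of the 30 genes, and 78.3% of them held a CCAAT box and 82.6% a GC box, against 41.1% and 38.2% of 27025 genes with a window. The exact element TCACNCCAC was in 4.35% of them, against 1.44% of all genes. All 4 lower genes with a window held a CCAAT box and 3 a GC box. A match describes letters in a short window and is not a shown binding site.

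The early pathway, from acetyl-CoA to squalene, held the 3 largest decreases of the list (Mvk, Fdps and Pmvk), with 4 of 7 genes lower and a median log2 change of −0.69. Mvk (chromosome 5, 114444269 to 114460591, mm10) encodes mevalonate kinase, which adds the first phosphate to mevalonate. Control replicates 1, 2 and 4 had 36.5, 33.2 and 51.6 FPKM, and the libraries of the TNF group, in the order 1, 3 and 4 used throughout, had 10.7, 8.89 and 8.24 FPKM. The groups were far apart, with the lowest control library above 3 times the highest TNF library, and Mvk fell by 1.99 ± 0.22 on the log2 scale (SE, limma, adjusted p = 0.00103). This call stood under each of the 16 alternative settings tried. Pmvk (chromosome 3, 89454541 to 89469013) encodes phosphomevalonate kinase, the next enzyme. It was at 28.2, 31 and 30.8 FPKM in control and at 14.9, 15.5 and 13.7 FPKM in TNF libraries, a 2.04-fold lower mean (log2 change −0.98 ± 0.15, limma, adjusted p = 0.00301). The spread within each group was small, with SDs of 1.58 and 0.917 FPKM. Fdps encodes farnesyl diphosphate synthase, which makes the isoprenoid used for both sterols and protein prenylation. Its row (chromosome 3, 89081939 to 89101959) is merged with that of Rusc1, so the level is uncertain. The row was at 192, 217 and 210 FPKM in control and at 97.5, 79.8 and 67.1 FPKM in TNF libraries, and fell by 1.34 ± 0.18 (limma, adjusted p = 0.00202).

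Fdft1, squalene synthase, commits farnesyl diphosphate to sterols. It was at 62.7, 63.6 and 71.8 FPKM in control and at 53.4, 42 and 37.2 FPKM in TNF libraries (log2 change −0.58 ± 0.18, limma, adjusted p = 0.0412). The groups did not overlap, but the call was lost on omitting any one of the 3 control libraries, without TNF replicate 3 or 4 and under 2 of the 3 alternative scalings (adjusted p = 0.177 with median-of-ratios factors), and exons of Fdft1 overlap those of Ctsb. The other 3 genes of this arm did not pass the test. Idi1, the isomerase that makes dimethylallyl diphosphate, was at 102, 116 and 61.1 FPKM in control and at 45.3, 65.7 and 57.1 FPKM in TNF libraries (limma, adjusted p = 0.0949). Control replicate 4 lay among the TNF libraries. When it was left out Idi1 passed (−0.96, adjusted p = 0.0258). Hmgcs1, the synthase that makes HMG-CoA, was at 84.8, 106 and 67.2 FPKM against 55.5, 78.5 and 65.5 FPKM, a log2 change of −0.36 with a 95% interval from −0.89 to 0.17. Acat2, the cytosolic thiolase of the first step, was at 31.5, 38.1 and 24.2 FPKM against 30.3, 21.3 and 19.5 FPKM (95% interval −0.97 to 0.19). Libraries of the groups overlapped for all 3.

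**Figure D2:**
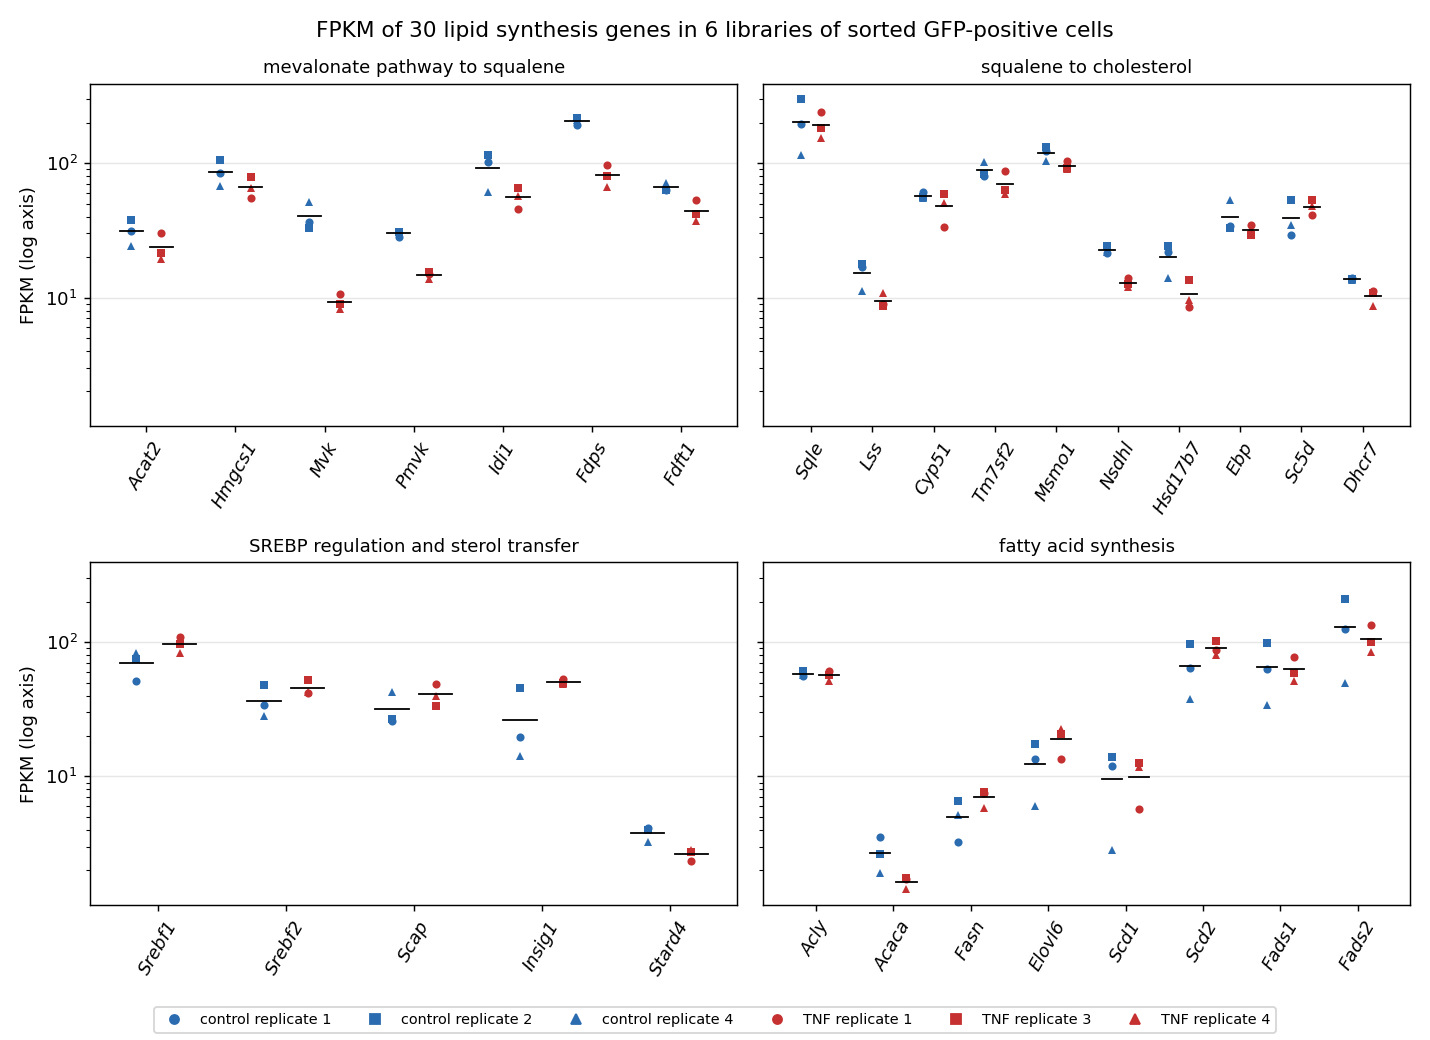
FPKM on a log axis for 30 genes in 6 libraries, in 4 panels by role. Blue points are control and red points TNF libraries, the shape gives the replicate and black bars are group means: for Mvk all red points lie under the blue ones, with means of 9.28 and 40.4 FPKM, while Sqle has means of 192 and 204 FPKM and overlapping libraries.

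Of the 10 genes from squalene to cholesterol, 2 were lower, 0 were higher and the median log2 change was −0.33. Nsdhl (chromosome X, 72918557 to 72958514), a dehydrogenase that removes the C4 methyl groups of lanosterol derivatives together with Msmo1 and Hsd17b7, was at 21.6, 24.1 and 21.9 FPKM in control libraries. It was at 13.9, 12.7 and 12 FPKM in TNF libraries and fell by 0.77 ± 0.16 (limma, adjusted p = 0.00959). Without TNF replicate 4 it missed the threshold (adjusted p = 0.0524). Hsd17b7 (chromosome 1, 169949535 to 169969241), the ketoreductase of the same step, was at 21.8, 24.4 and 14 FPKM against 8.49, 13.5 and 9.67 FPKM (log2 change −0.85 ± 0.27, limma, adjusted p = 0.0475). Control replicate 4 and TNF replicate 3 nearly met, and the call was lost in each omission of 1 library except that of control replicate 4. Msmo1, the oxidase that acts before them, was at 123, 132 and 104 FPKM against 104, 92.5 and 90.3 FPKM (95% interval −0.69 to 0.06, adjusted p = 0.166).

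The other sterol enzymes did not pass the test. Sqle, squalene epoxidase, was at 195, 300 and 116 FPKM in control and at 239, 182 and 155 FPKM in TNF libraries, with a log2 change of 0.00 and a 95% interval from −0.87 to 0.86. Its 3 TNF libraries lay within the range of the controls. Lss, which closes squalene epoxide into lanosterol, was at 16.8, 17.8 and 11.1 FPKM against 8.94, 8.66 and 10.9 FPKM (limma, adjusted p = 0.0807). Leaving out control replicate 4 brought Lss past the threshold (−0.81, adjusted p = 0.0278). Dhcr7, the reductase of the last step, was at 14, 13.8 and 13.4 FPKM against 11.2, 10.8 and 8.61 FPKM (limma, adjusted p = 0.121). For both genes each TNF library was below each control library. Cyp51, the lanosterol demethylase, was at 60.7, 55.8 and 55 FPKM against 33.8, 58.9 and 50.9 FPKM, a row that spans 7.49 times the length of the gene and whose exons overlap those of Akap9. The isomerase gene Ebp had means of 40.1 and 32 FPKM, and the row of Tm7sf2, a sterol reductase gene, which is merged with Vps51 and Zfpl1, had means of 88.6 and 70 FPKM. Sc5d, the desaturase of the sterol ring, had the highest change of this arm (0.32), at 38.9 ± 12.6 and 47.4 ± 5.83 FPKM (SD, n = 3 each, adjusted p = 0.35, limma), with overlapping groups.

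Of the 5 regulators, 2 (Insig1 and Srebf1) had each TNF library above each control library and 1 (Stard4) the reverse. None of the 5 passed the test (limma), 4 had positive changes and the median log2 change was 0.37. Insig1 (chromosome 5, 28071363 to 28078662), the endoplasmic reticulum anchor that holds back Scap and SREBP and is itself an SREBP target, was at 19.8, 45.4 and 14.3 FPKM in control libraries. It was at 53, 49.8 and 48.6 FPKM in TNF libraries. Each TNF library was above each control library, and the TNF libraries were close together (SD 2.26 FPKM) where the controls were not (SD 16.6 FPKM). The log2 change was 1.07 ± 0.39 (95% interval 0.13 to 2, limma, adjusted p = 0.0724). It passed without control replicate 2 (1.52, adjusted p = 0.0077) and under median-of-ratios scaling (1.30, adjusted p = 0.0381), and it had the opposite sign, −0.33, when libraries were scaled to the HBC markers. Within a library, Insig1 stood at 0.377, 1 and 0.391 times the FPKM of its paralog Insig2 in control libraries and at 0.805, 0.69 and 0.693 times in TNF libraries, so the groups overlapped in this ratio, with control replicate 2 highest.

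Srebf1 was at 51.7, 75.4 and 82.5 FPKM in control and at 109, 96.1 and 82.9 FPKM in TNF libraries (log2 change 0.47, limma, adjusted p = 0.139). The lowest TNF and the highest control library were nearly equal, and the row spans 5 times the length of the gene, with exons that overlap those of Rai1. It passed under median-of-ratios scaling (0.71, adjusted p = 0.046) and was at −0.96 when scaled to the HBC markers. Srebf2 was at 33.8, 47.6 and 28.1 FPKM against 41.5, 52.2 and 42.8 FPKM (95% interval −0.20 to 0.88), with overlapping groups. Scap, the escort of both SREBPs, was at 26, 26.7 and 42.7 FPKM against 48.6, 33.7 and 40 FPKM (95% interval −0.22 to 0.96), and also overlapped. Stard4, which carries cholesterol between membranes, was low in both groups, at 3.8 ± 0.474 and 2.64 ± 0.251 FPKM (SD, n = 3 each), with each TNF library below each control library and adjusted p = 0.149 (limma).

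None of the 8 fatty acid genes was lower or higher, and their median log2 change was 0.13. Acly, which makes cytosolic acetyl-CoA from citrate, was at 55.7, 60.4 and 57.3 FPKM in control and at 61.1, 57.3 and 51.5 FPKM in TNF libraries. Its values were close within and between the groups (95% interval of the log2 change −0.37 to 0.30). Acaca, the carboxylase that makes malonyl-CoA, was low at 3.51, 2.62 and 1.91 FPKM against 1.72, 1.74 and 1.44 FPKM (limma, adjusted p = 0.147), with each TNF library below each control library. Fasn, the fatty acid synthase, was also low, at 3.27, 6.57 and 5.17 FPKM against 7.48, 7.59 and 5.85 FPKM (adjusted p = 0.243, limma), with overlap.

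The elongase and desaturase genes varied widely among the control libraries. Scd1, a stearoyl-CoA desaturase, was at 11.9, 13.9 and 2.81 FPKM in control and at 5.68, 12.5 and 11.7 FPKM in TNF libraries. The 95% interval of its log2 change ran from −1.14 to 1.57. Scd2, the paralog of Scd1, was at 63.7, 97 and 37.8 FPKM against 87.2, 102 and 80.7 FPKM (95% interval −0.26 to 1.33). Scd2 exceeded Scd1 in each library, by 5.33 to 13.5 times in control and 6.89 to 15.4 times in TNF libraries, although reads of near-identical Scd copies may be split between rows. Elovl6, which lengthens palmitate, was at 13.4, 17.5 and 6 FPKM against 13.4, 20.6 and 22.6 FPKM (adjusted p = 0.239, limma). Fads1 and Fads2, the delta-5 and delta-6 desaturases of polyunsaturated fatty acids, had mean FPKM of 65.3 and 129 in control and 62.5 and 106 in TNF libraries. For these 5 genes the controls spread over more than the difference between the groups.

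Much of that spread lay between control libraries. Across the 30 genes, 20 were highest in control replicate 2 and 18 were lowest in control replicate 4, where 28.3% and 38.9% of all tested rows were. FPKM was at least 1.5 times higher in control replicate 2 than in control replicate 4 for 14 of the 30 genes, against 20.1% of all tested rows. The ratio was 4.95 for Scd1, 4.23 for Fads2, 3.16 for Insig1, 2.93 for Fads1, 2.92 for Elovl6, 2.59 for Sqle and 2.56 for Scd2, and it was 1.01 for Pmvk, 1.04 for Fdps and 0.643 for Mvk. The highest over the lowest control library was 1.61 at the median of the list and 1.52 at the median of all tested rows above 0 in each library, and for TNF libraries these were 1.31 and 1.53. Of the 6 lower genes, Hsd17b7 (1.74) was the 1 among those 14. Beside these, control replicate 4 had the highest summed macrophage markers, 1620 FPKM against 331 and 372 in the other controls, and the lowest HBC sum, 878 against 2860 and 3690. Their part in the spread was not tested.

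**Figure D3:**
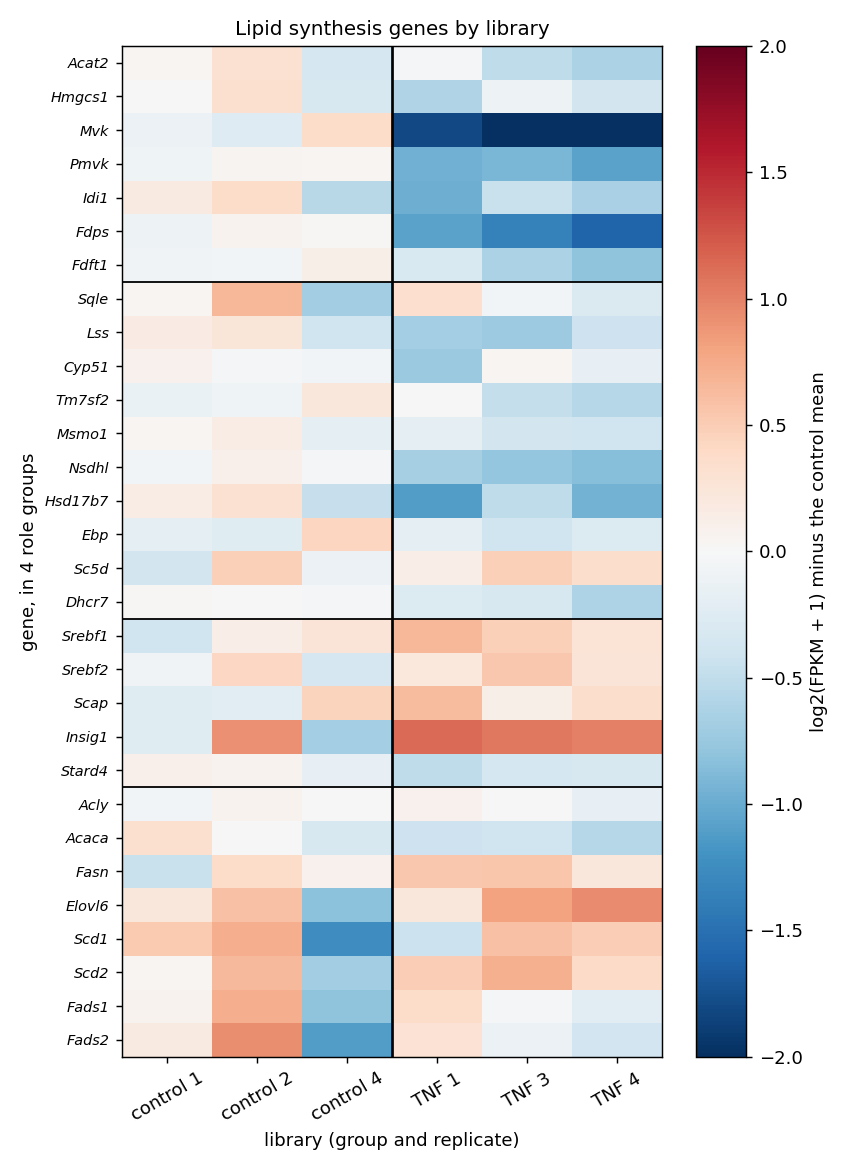
Log2(FPKM + 1) of 30 genes minus the mean of the control libraries, by library, with roles separated by black lines, red above and blue below the control mean. Mvk and Fdps are blue in the 3 TNF libraries, Insig1 is red in them and also in control replicate 2, and Scd1, Fads1, Fads2 and Sqle are blue in control replicate 4.

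Markers of other cells moved between the groups as well. All 12 mature and all 11 measured immature olfactory neuron markers were lower in TNF libraries. The immature markers summed to 4590 to 9870 FPKM in control and 262 to 460 FPKM in TNF libraries, and Dcx was listed at 0 in TNF replicates 3 and 4. Mvk and Fdft1 were highest in control replicate 4, which also had the highest sums of both neuron lists. Pmvk, Fdps, Nsdhl and Hsd17b7 were highest in control replicate 2, which had the lowest control sums of both lists. For Pmvk and Fdps control replicate 4 was nearly equal to it, at 30.8 against 31 FPKM and 210 against 217 FPKM. Within the TNF group the mature sum was 1170, 47.2 and 38 FPKM while Mvk was at 10.7, 8.89 and 8.24 FPKM, Pmvk at 14.9, 15.5 and 13.7 FPKM and Nsdhl at 13.9, 12.7 and 12 FPKM. In the same libraries Fdps was at 97.5, 79.8 and 67.1 FPKM, Fdft1 at 53.4, 42 and 37.2 FPKM and Hsd17b7 at 8.49, 13.5 and 9.67 FPKM. TNF replicate 1, with the most neuronal transcripts of its group, was thus the highest for Mvk, Fdps, Fdft1 and Nsdhl, between the others for Pmvk and the lowest for Hsd17b7. Of 12 macrophage markers 9 were lower, with sums of 331 to 1620 and 187 to 567 FPKM and none at 0. The TNF sums of this list were mostly Lyz2, which had no call. It was at 158, 181 and 489 FPKM in control and 487, 155 and 220 FPKM in TNF libraries. Of 8 sustentacular markers tested 5 were lower, with sums over 9 of 3600 to 8800 and 4550 to 9870 FPKM, none at 0. These sums were mostly Cbr2 and Ugt2a1, neither of which was called. Cyp2g1, 1 of the 5 lower markers, was at 246, 256 and 332 FPKM in control and 26.5, 0.221 and 0.533 FPKM in TNF libraries. Of 6 tested fibroblast and 6 tested endothelial markers none passed the test. Fibroblast sums were 141 to 528 FPKM in control and 41.7, 1090 and 1570 FPKM in TNF libraries. Endothelial sums were 32.6 to 42.5 FPKM in control and 3.71, 92.7 and 144 FPKM in TNF libraries. Both sums exceeded each control in TNF replicates 3 and 4 and were lowest in TNF replicate 1, where Dpt and Kdr were at 0. Pdgfra, a fibroblast marker not tested, was at 0.264, 0.639 and 0.208 FPKM in control and 0.143, 29.7 and 34.9 FPKM in TNF libraries. Of 7 tested T, B and plasma cell markers 5 were lower, with sums of 37.5 to 186 and 45.1 to 79.6 FPKM. Of these, Cd3e, Cd3g, Cd79a and Ms4a1 were below 1 FPKM in each TNF library and entered the test only through the controls. The same held for the macrophage markers Adgre1, Cx3cr1 and Mrc1 and the immature neuron markers Dcx and Nhlh2. The TNF sums of the T, B and plasma cell list were mostly Jchain. It was at 67.4, 48.7 and 34.3 FPKM in TNF and 0.218, 0.0769 and 105 FPKM in control libraries. Of 10 dissociation stress genes 2 were higher, with sums of 4370 to 5990 FPKM in control libraries and of 5190, 17600 and 15500 FPKM in TNF libraries. Of 7 ensheathing glia markers 2 were higher and of 7 tested Bowman gland markers 1 was lower. The part of these cells in the lower sterol genes was not tested.

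Related genes of lipid metabolism, taken from 7 lists chosen by function, changed in both directions. Of 88 tested, 21 were higher and 18 lower (limma), where 10.9% and 27.2% of all rows were. Of 6 other sterol synthesis genes 2 fell and 0 rose. The mitochondrial thiolase gene Acat1 fell by 1.18 (adjusted p = 0.00282, limma) from 109 to 47.5 FPKM, and Ggps1, which makes geranylgeranyl diphosphate, by 0.58 (adjusted p = 0.0339). The call of Ggps1 was lost in 5 of 6 single omissions and under median-of-ratios scaling (adjusted p = 0.167). Of 10 genes of SREBP processing and sterol sensing, 2 rose and 1 fell. Insig2, the paralog of Insig1, went from 44.8 to 69.4 FPKM, while Pparg, a lipid-sensing nuclear receptor gene, went from 3.05 to 0.713 FPKM. The call of Pparg was lost without TNF replicate 3 or 4, with no filter and under median-of-ratios scaling, and quantile normalization moved its change from −1.14 to −0.44 (adjusted p = 0.406, limma).

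Genes of sterol uptake and efflux changed in both directions. Of 13 uptake and lysosomal genes 2 rose and 4 fell. Scarb1, the HDL receptor, went from 15.2 to 22.2 FPKM. The lipoprotein receptor genes Lrp8 and Vldlr fell by 1.82 and 1.32 on the log2 scale. Of 10 efflux, esterification and oxidation genes tested 4 rose and 1 fell. Ch25h, the cholesterol 25-hydroxylase, was at 14, 23.5 and 10.2 FPKM against 61, 73 and 77.7 FPKM (2.15 ± 0.30, limma, adjusted p = 0.00213). The row of Ch25h spans 5.6 times the length of the gene, and exons of Ch25h overlap those of Gm26902. Cyp7b1, which acts on the product of Ch25h, went from 7.61 to 34.5 FPKM and the efflux pump gene Abca1 from 1.71 to 9.56 FPKM, whereas the neuronal hydroxylase gene Cyp46a1 went from 2.08 to 0.596 FPKM. For Ch25h, Cyp7b1 and Abca1 each TNF library exceeded each control library.

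Of 19 other fatty acid genes tested 4 rose and 6 fell. The elongase gene Elovl4 was at 51.5, 36.5 and 68.4 FPKM in control and at 7.64, 5.11 and 6.54 FPKM in TNF libraries (−2.81, limma, adjusted p = 0.000716). Acss2, which makes acetyl-CoA from acetate and is a known SREBP target, fell by 2.41 from 41.5 to 7.15 FPKM, and Scd3 from 8.79 to 0.204 FPKM. Acyl-CoA synthetase gene Acsl3 and elongase genes Elovl1 and Elovl7 rose by 1.11, 0.81 and 0.76. Reads of some rows may belong to a neighbour, since exons of Acss2 overlap those of Gss and Ggt7, Elovl1 those of Cdc20, Agpat2 those of Egfl7 and Ggps1 those of Arid4b, and Acsl3 is merged with Utp14b. Of 14 genes of triglyceride and phospholipid synthesis 4 rose, with Dgat2 at 1.39, Agpat2 at 1.01 and Chka at 0.66, and 3 fell, with Ptdss2 at −1.53, Pcyt2 at −0.71 and Ptdss1 at −0.59. Of 16 fatty acid oxidation genes 5 rose and 1 fell, among them Acadl from 45.1 to 138 FPKM and Cpt1a, the gate of mitochondrial oxidation, from 7.71 to 17.5 FPKM, while Hadhb went from 105 to 72.3 FPKM. The call of Hadhb was lost in 11 of the 16 settings, with adjusted p = 0.0519 under the 5 FPKM filter and 0.213 under median-of-ratios scaling (limma). Of the 26 genes named from the related lists, 13 lost their call in at least 1 single omission: Ggps1, Insig2, Pparg, Scarb1, Acsl3, Elovl1, Elovl7, Agpat2, Chka, Pcyt2, Ptdss1, Cpt1a and Hadhb. Scd3, Cyp46a1 and Pparg reached 1 FPKM only in the 3 control libraries, so omissions of a control library did not test them. Quantile normalization moved the change of Cyp46a1 from −0.94 to −0.21 (adjusted p = 0.432, limma). Scaling to the HBC markers moved the median of all rows to −1.50. It ended the calls of all 13 named higher genes of these lists and turned the sign of 8 of them, among them Insig2 and Cpt1a. Ch25h, Cyp7b1, Abca1, Dgat2 and Acadl kept a positive sign there. The counts of higher and lower genes over the 7 lists fell to 7 and 6 without control replicate 1, 10 and 9 without control replicate 4, 7 and 8 without TNF replicate 3 and 7 and 9 without TNF replicate 4, and without control replicate 2 the lower count was 7.

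**Figure D4:**
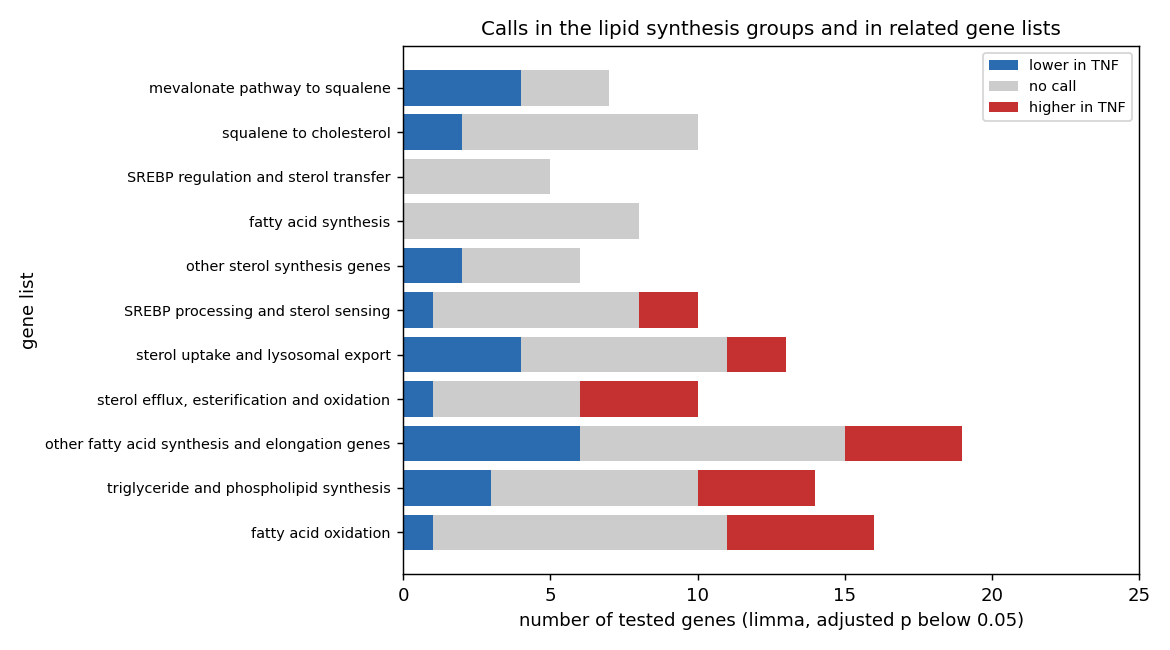
Number of tested genes that were lower (blue), not called (grey) or higher (red) in TNF libraries (limma, adjusted p below 0.05) in the 4 groups of synthesis genes and in 7 related lists. The synthesis groups hold 6 lower and 0 higher genes, and the group of sterol efflux, esterification and oxidation holds 4 higher and 1 lower.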

How the data were processed

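RNA of cells sorted for GFP was amplified with a SMARTer kit and made into Nextera libraries, per the labels' protocols. The submitters' processing notes name TopHat2 2.1.1, Cuffdiff 2.2.1, FastQC 0.10.1, bcl2fastq and the mm10 build, with settings and strand handling not given in the sources used. The authors deposited 1 FPKM value per gene row and library. Although the table is called one of raw counts, 99.98% of its values above 0 are not whole. No count model was therefore applied, and depth and counting intervals are unknown.

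The test was limma 3.58.1 in R 4.3.3 (empirical Bayes with a trend) on log2(FPKM + 1), hence with a pseudocount of 1 and no rescaling. It covered every row that reached 1 FPKM in 3 or more libraries. The Benjamini-Hochberg adjustment ran over all tested rows, with a threshold of 0.05, and the procedure was tested on simulated data. Exon overlaps, from GENCODE M21 (GRCm38), affect 11 of the synthesis genes, and 2 lie in merged rows. Genes and lists were chosen with earlier results of these data known. All synthesis genes are named, as are, from each related list, up to 3 genes per direction with the smallest p, some of which are not reported here. Of 232 symbols, 2 were matched by an older name and 3 were unmatched. Alternatives covered pseudocount, filter, scaling, omitted libraries, a replicate block and a fold threshold.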

Additional observations from a re-analysis of the deposited data

How the results depend on the processing

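The 16 alternatives covered pseudocount, filters, scaling, omitted libraries, a replicate block, a fold threshold and summed rows. The count of lower genes was 21 with scaling to the HBC markers, 14 without control replicate 4 and TNF replicate 1 together, 2 with a 2-fold threshold and 1 with the replicate block, and single omissions gave 3 to 7. The count of higher genes was 2 under median-of-ratios scaling (Insig1 and Srebf1) and 1 without control replicate 4 and TNF replicate 1 together. It was 1 with the replicate block (Insig1, 1.53, adjusted p = 0.0261, limma), and omitting single libraries gave 0 to 1. Only replicates 1 and 4 occur in both groups, so control replicate 2 and TNF replicate 3 did not enter the block estimates. For the median log2 change the values were −0.06 under median-of-ratios scaling, −0.04 under quantile normalization and −1.60 scaled to the HBC markers, and −0.41 to −0.24 in single omissions. Relative to the median of all rows, which these scalings moved to 0.01, 0.05 and −1.50, it was −0.07, −0.09 and −0.10, beside −0.08 as deposited. This gap was −0.22 with no filter, −0.18 and −0.25 on leaving out control replicate 1 or 4, −0.28 on leaving out control replicate 4 with TNF replicate 1, and −0.03 on leaving out only the latter.

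Over the related lists, higher and lower genes numbered 0 and 44 scaled to the HBC markers, 5 and 6 with the replicate block and 10 and 10 with a 2-fold threshold. The lower count was 9 under median-of-ratios scaling and 11 under quantile normalization. Single omissions gave 7 to 19 higher and 6 to 19 lower genes. Scaled to the HBC markers, Fads1 passed at −1.37 and 8 named higher genes turned: Insig2 to −0.79, Scarb1 to −0.86, Acsl3 to −0.33, Elovl1 to −0.58, Elovl7 to −0.20, Agpat2 to −0.35, Chka to −0.75 and Cpt1a to −0.22. The same scaling moved the median of all rows from −0.22 to −1.50. What makes the HBC markers differ between the groups was not tested.

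The replicate numbers 1 and 4 occur in both groups, but their deviations correlated at −0.06 and −0.09, so the numbers are not read as pairs, and the block leaves 1 lower gene (Mvk). Over single genes of the list, 421 of the alternative values stood on the same side of the threshold, 26 lost a call and 30 gained one. In 1, Fads1 scaled to the HBC markers, a call was gained with the opposite sign. Changes of sign without a call on either side count among the 421, as for Insig1 and Srebf1 under that scaling. The unknown depth and 3 libraries per group limit what can be detected.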
